A study of Mus musculus with 167 samples.

Results

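A panel of 5 surface proteins defines the sort gate of lymphoid-primed multipotent progenitors (LMPPs), early blood progenitors that give rise to lymphocytes and to myeloid cells. Their genes are Flt3, Kit, Cd34, Ly6a (which encodes Sca-1) and Slamf1 (which encodes CD150). These are 5 of the 38924 genes of the table, chosen as the proteins stained to isolate the cells, and each was found by its Ensembl identifier and symbol. The gate asks for Sca-1, c-Kit and CD34, for high Flt3, and for no CD150, so 4 of the 5 proteins were selected for and 1 against. The values below are transcripts of cells already sorted on these proteins.

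The cells came from bone marrow of female C57Bl/6J mice. The groups were LMPPs of 14 months, which fell into set 5 and set 4 by the numbers in their column names, and LMPPs of 4 months. Marrow mononuclear cells of both ages were depleted of cells with mature lineage antigens before the sort, and no genotype or treatment is given in the labels. Single cells were captured and their RNA amplified on a Fluidigm C1 microfluidic chip, and the table gives TPM, a transcript abundance corrected for transcript length and adding up to 1 fixed total for every cell. A cell was kept if 1000 or more genes reached TPM 1, and TPM 1 was also the lowest value at which a transcript counted as detected. This kept 66 of 84 columns of 14 months (37 of 39 of set 5 and 29 of 45 of set 4) and 64 of 84 columns of 4 months. The labels list 83 cells of 14 months, so 1 column of that age has no label of its own.

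The labels name no animals, and each age therefore counts as 1 sample, no test between the ages is possible and no p-value is given. Intervals in brackets are exact Clopper-Pearson 95% intervals and cover counting error over cells only. What the set numbers stand for is not given, and the cells of 4 months carry none, so age and capture cannot be told apart. TPM keeps no sequencing depth, so it is unknown. Genes detected per cell serve as a substitute, with a median of 3281 in kept cells of 14 months (3376 in set 5 and 3230 in set 4) and 3974.5 in kept cells of 4 months. Mitochondrial transcripts took a median of 17.7% of TPM in cells of 14 months and 12.4% in cells of 4 months. Defining genes of mature lineages (Pax5 of B cells, Cd3e and Cd3g of T cells, Ly6g of neutrophils) were listed at 0 in every kept cell, but other members of the marker lists were found. At least 1 B-cell marker, mostly Cd79b, was found in 24.2% of cells of 14 months and 43.8% of cells of 4 months, and at least 1 T-cell marker in 4.55% of cells of 14 months and 7.81% of cells of 4 months. At least 1 monocyte or macrophage marker, mostly Lyz2, was found in 66.7% of cells of 14 months and 78.1% of cells of 4 months. Their part in the results below was not tested. Among the kept cells, 4 pairs had expression profiles correlated above 0.75, and 2 cells held over 20% of their TPM in 1 nuclear gene. Detection shares of the 4 detected gate genes moved by less than counting error without them, and the levels that moved more are given below.

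Flt3 and c-Kit are class III receptor tyrosine kinases, bound by Flt3 ligand and by stem cell factor, and both signal through RAS, PI3 kinase and STAT5. Blood stem cells carry c-Kit and little Flt3, and Flt3 appears on the surface as lymphoid potential is primed and megakaryocyte and erythroid potential declines. CD34 is a sialomucin of progenitors and endothelium. Sca-1 is a GPI-anchored protein of the Ly6 family, and CD150 is a homophilic receptor of the SLAM family that marks long-term stem cells.

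Flt3 (chr5:147330741-147400489, minus strand, GRCm38, the build also called mm10), the receptor whose high surface level defines LMPPs, was the most widely detected of the 5 transcripts. It was found in 61 of 66 cells of 14 months (92.4%, 83.2 to 97.5) and in 64 of 64 cells of 4 months (100%, 94.4 to 100). Within the older cells, 36 of 37 cells of set 5 and 25 of 29 cells of set 4 had it. Of the 5 older cells that did not reach TPM 1, 2 were listed at 0 and 3 lay between 0 and 1. Levels spanned 0 to 892 TPM in cells of 14 months, with medians of 152.85 in set 5 and 73.77 in set 4, and 1.8 to 1784 TPM in cells of 4 months, with a median of 98.9. The cells of the 2 ages overlapped over nearly their whole range, and the median of cells of 4 months lay between the medians of the 2 older sets.

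Cd34 (chr1:194938819-194961279, plus strand) had the highest levels. It was detected in 58 of 66 cells of 14 months (87.9%, 77.5 to 94.6) and in 57 of 64 cells of 4 months (89.1%, 78.8 to 95.5). In cells of 14 months it ranged from 0 to 1338 TPM with a median of 227.6, and in cells of 4 months from 0 to 1880 TPM with a median of 410.6. Among the 57 cells of 4 months with the transcript, the lowest held 43.6 TPM, so none lay between TPM 1 and TPM 10. Of those below TPM 1, 6 were listed at 0 and 1 lay between 0 and 1. Cd34 was found in 5 of 11 cells of 4 months with 1000 to 2999 genes, in 22 of 22 with 3000 to 3999 and in 30 of 31 with more. In cells of 14 months these counts were 21 of 28, 21 of 21 and 16 of 17. Whether cells below TPM 1 lacked Cd34 was not tested. The cells of 14 months included 3 between TPM 1 and TPM 10, with a lowest detected value of 1.77. The median over cells with the transcript was 234 TPM in set 5, 295 TPM in set 4 and 424 TPM in cells of 4 months. In detection the ages were alike within counting error, whereas the level among detected cells was lower in both older sets than in cells of 4 months. These TPM levels were not set against other genes. Relative to the median gene, as defined below, Cd34 differed from cells of 4 months by −1.34 in set 5 and 0.12 in set 4.

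Kit (chr5:75574916-75656722, plus strand), the stem cell factor receptor, was found in 35 of 66 cells of 14 months (53.0%, 40.3 to 65.4) and in 43 of 64 cells of 4 months (67.2%, 54.3 to 78.4). Set 5 had it in 22 of 37 cells and set 4 in 13 of 29. All of these cells had been sorted as c-Kit positive, and Kit was listed at 0 in 23 cells of 14 months and in 17 cells of 4 months. The range was 0 to 733 TPM in cells of 14 months, with medians of 12.3 in set 5 and 0.42 in set 4, and 0 to 297 TPM in cells of 4 months, with a median of 9.65. A single cell at 732.86 TPM carried much of the mean of set 4, which was 37.1 TPM with it and 12.2 TPM without it. The mean over all cells of 14 months was 47.6 TPM with that cell and 37.1 TPM without it, against 47.3 TPM in cells of 4 months.

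Ly6a (chr15:74994877-74998031, minus strand) was the least often detected of the 4 transcripts whose proteins were selected for. It was found in 25 of 66 cells of 14 months (37.9%, 26.2 to 50.7) and in 25 of 64 cells of 4 months (39.1%, 27.1 to 52.1), and its median was 0 TPM in both. Sca-1 protein was required of every cell, and Ly6a was listed at 0 in 37 cells of 14 months and in 38 cells of 4 months. Where it was detected it was abundant, with a median of 245 TPM in set 5, 61.3 TPM in set 4 and 125 TPM in cells of 4 months. Its highest values were 1271 TPM in a cell of 14 months and 2416 TPM in a cell of 4 months. Of its detected cells, 22 of 25 of 14 months and 22 of 25 of 4 months were at TPM 10 or more. In the same order of ages this was 56 of 61 and 60 of 64 for Flt3, and 55 of 58 and 57 of 57 for Cd34. For Kit it was 26 of 35 and 32 of 43, so few low values were not particular to Ly6a. Whether cells at 0 lacked Ly6a or had it missed was not tested.

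Slamf1 (chr1:171767127-171801184, plus strand), whose protein was selected against, was listed at 0 in all 168 columns, kept or not. A count of 0 of 66 cells of 14 months allows a share of up to 4.55%, and 0 of 64 cells of 4 months one of up to 4.69%, as limits (3 cells) that cover counting error only and not transcripts missed in a cell. A value of 0 is common in the table: 20006 of 38924 genes, or 51.4%, were at 0 in every column. Of genes used by nearly every cell, Actb and Eef1a1 were at 0 in 0 of 130 kept cells, B2m in 3 and Gapdh in 4, and Ptprc, the pan-leukocyte antigen CD45, was at 0 in 20. Procr, another transcript of stem cells positive for CD150, was found in 1 of 66 cells of 14 months and in 3 of 64 cells of 4 months.

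**Figure D1:**
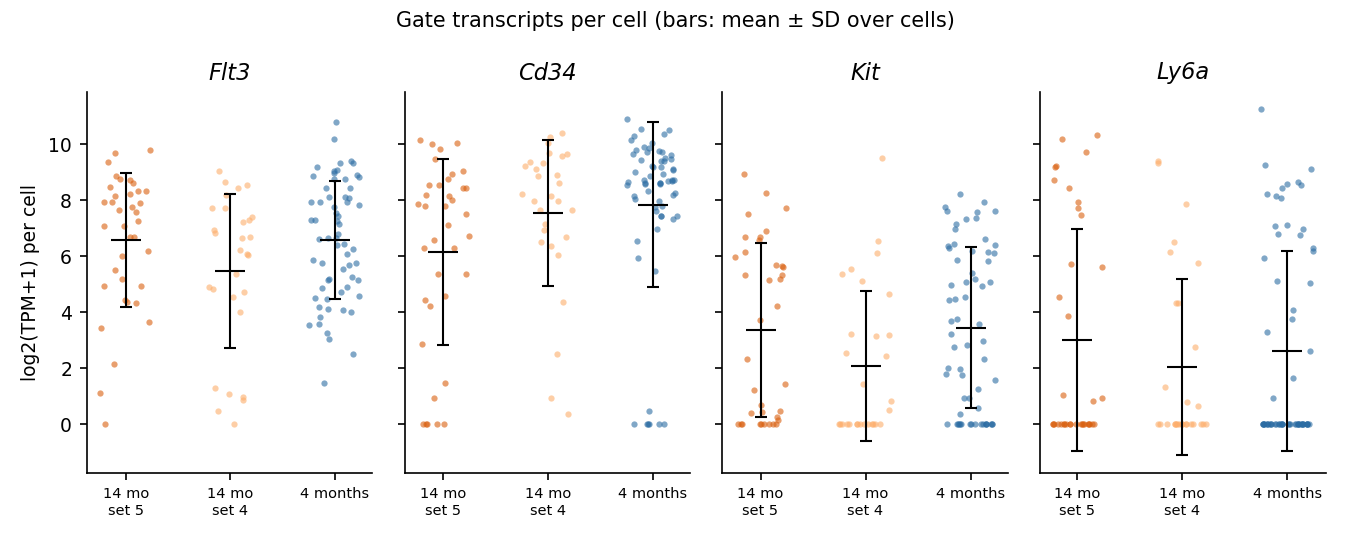
Each point is 1 kept cell and gives log2(TPM+1) of Flt3, Cd34, Kit or Ly6a in set 5 and set 4 of the 14-month cells and in the 4-month cells, with the mean and SD over cells as black bars. Flt3 and Cd34 fill the upper range with few cells at 0, while Kit and Ly6a have many cells at 0 in all 3 groups, and Kit in set 4 has only 7 of 29 cells at TPM 10 or more.

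**Figure D2:**
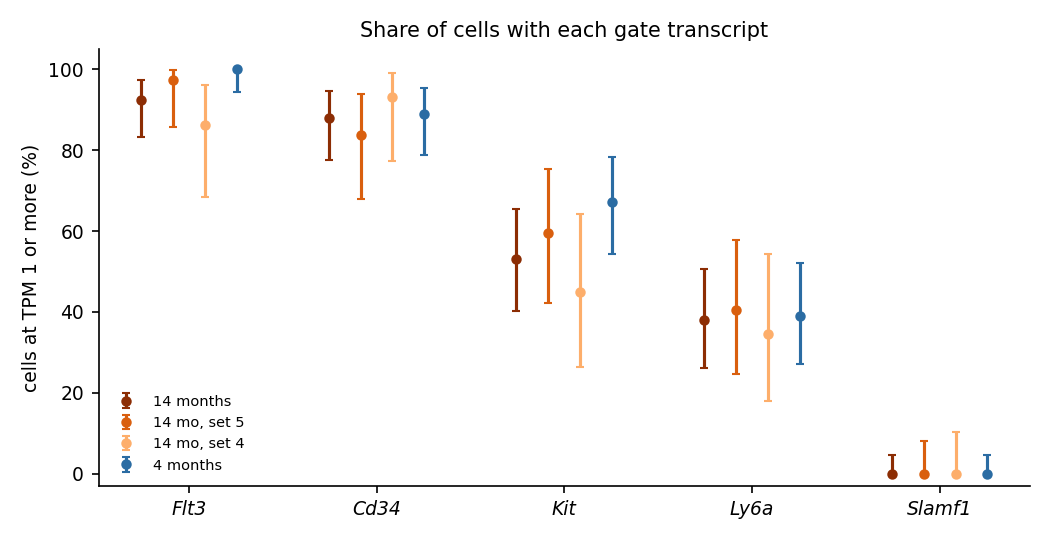
Points give the percentage of kept cells with each transcript at TPM 1 or more, with exact 95% intervals over cells; for Slamf1, at 0 in every cell, the bar ends at the share that 3 cells would give. The order Flt3, Cd34, Kit, Ly6a runs downwards in the pooled 14-month cells and in the 4-month cells, and set 4 has Cd34 above Flt3.

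Set against the 9224 genes measured (found in at least 10% of cells, as the mean of the 2 ages), Flt3 and Cd34 stood near the top. Over the 130 kept cells, Flt3 was detected more widely than 98.7% of measured genes, Cd34 than 95.9%, Kit than 81.9% and Ly6a than 62.5%. The median measured gene was found in 30.0% of cells. Mean log2(TPM+1) placed Cd34 above 97.2% of measured genes, Flt3 above 95.8%, Kit above 81.2% and Ly6a above 75.2%. Ly6a was also among the most uneven, with an SD over cells larger than that of 95.7% of measured genes, against 52.6% for Flt3.

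By mean log2(TPM+1), which sets genes side by side per transcript length, the order of levels was Cd34, Flt3, Kit, Ly6a at both ages. Cd34 averaged 6.76 ± 3.08 in cells of 14 months and 7.83 ± 2.94 in cells of 4 months (SD over 66 and 64 cells). Flt3 averaged 6.09 ± 2.60 and Kit 2.80 ± 2.96 in cells of 14 months, against 6.58 ± 2.10 and 3.44 ± 2.87 in cells of 4 months. Ly6a averaged 2.58 ± 3.63 in cells of 14 months and 2.62 ± 3.57 in cells of 4 months. Cd34 and Flt3 differed from each other by less than the spread over cells, as did Kit and Ly6a. Cd34 exceeded Flt3 in 44 of 66 cells of 14 months and in 47 of 64 cells of 4 months. Set 5 had Cd34 above Flt3 in 21 of 37 cells and set 4 in 23 of 29. By mean log2(TPM+1) the order of this pair was turned in set 5, where Cd34 averaged 0.42 below Flt3, but not by the median, which was 179.8 TPM for Cd34 and 152.85 TPM for Flt3 there. Kit exceeded Ly6a in 27 cells of 14 months with 24 the other way, and in 34 cells of 4 months with 17 the other way. By mean TPM the order of these 2 was the reverse, since Ly6a averaged 117.7 TPM in cells of 14 months and 107.0 TPM in cells of 4 months, against 47.6 TPM and 47.3 TPM for Kit at these ages. Kit minus Ly6a in cells of 14 months was 0.22 on the log2 scale, and 0.64 without 1 cell of each correlated pair.

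The comparison of ages asks whether the gate transcripts shifted more than the rest of the transcriptome did. The difference in mean log2(TPM+1), 14 months minus 4 months, had a median of −0.36 over the measured genes, and each difference below is given relative to that median. Relative differences were −0.13 for Flt3, −0.29 for Kit, −0.72 for Cd34 and 0.32 for Ly6a. The value of Ly6a was 0.04 without 1 cell of each pair correlated above 0.75 and 0.11 without the 2 cells dominated by 1 nuclear gene, so it rested on few cells. Without the correlated cells Flt3 was at −0.22 and Kit at −0.14. None of the 4 measured gate genes reached 1 in size, which 8.46% of the measured genes did. Cd34, at the low end, was still above 10.8% of measured genes, and Ly6a, at the high end, was above 74.3%. Slamf1 was not measured, since it was never above 0.

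The 2 older sets did not give the same picture. Relative to cells of 4 months, set 5 gave 0.33 for Flt3, 0.26 for Kit, −1.34 for Cd34 and 0.72 for Ly6a. Set 4 gave −0.68 for Flt3, −0.94 for Kit, 0.12 for Cd34 and −0.16 for Ly6a, the opposite sign in each case. Set 5 minus set 4, taken relative to the median gene (0.09), was 1.01 for Flt3, 1.21 for Kit, −1.47 for Cd34 and 0.88 for Ly6a. Of the 4 gate genes, 3 thus reached 1 in size between sets of the same age, beside 11.4% of measured genes, with Flt3 at the edge. Cd34 stood out most, since only 0.997% of measured genes were lower in set 5 against set 4. The differences between sets were larger than those between ages for each of the 4 genes. The sets also differed in columns left out (2 of 39 in set 5 and 16 of 45 in set 4) and in mitochondrial share (medians of 15.8% and 20.5%), and the part of these in the result was not tested.

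Every cell had passed a gate for Flt3, c-Kit, CD34 and Sca-1 protein together, and in most cells the 4 transcripts were not all found together. All 4 were detected in 11 of 66 cells of 14 months (16.7%, 8.62 to 27.9) and in 22 of 64 cells of 4 months (34.4%, 22.9 to 47.3). Set 5 gave 7 of 37 cells and set 4 gave 4 of 29. The product of the 4 single shares, which is what unrelated detection would give, was 16.3% in cells of 14 months and 23.4% in cells of 4 months. Exactly 3 transcripts were found in 29 cells of 14 months and 23 cells of 4 months, and exactly 2 in 23 cells of 14 months and 13 cells of 4 months. In cells of 14 months the commonest sets were Flt3 with Cd34 (17 cells) and Flt3 with Kit and Cd34 (17 cells), whereas in cells of 4 months the commonest was all 4 (22 cells), followed by Flt3 with Kit and Cd34 (20 cells).

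The share in older cells was lower at each detection threshold tried, and the gap depended on the threshold. Counting any value above 0, all 4 were found in 30.3% of cells of 14 months and 34.4% of cells of 4 months. At TPM 10 or more the shares were 7.58% in cells of 14 months and 25.0% in cells of 4 months. Values above 0 but below TPM 1 were more frequent in the older cells, with 8 cells of 14 months and 4 of 4 months for Kit, and 4 cells of 14 months and 1 of 4 months for Ly6a. In 50 cells of each age matched on genes detected, the shares at TPM 1 were 16.0% in cells of 14 months and 26.0% in cells of 4 months.

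**Figure D3:**
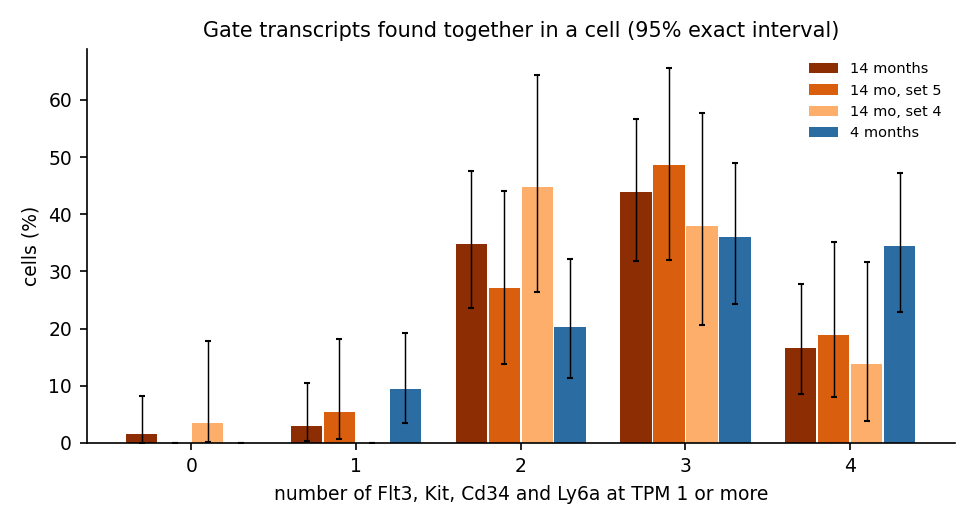
Bars give the percentage of kept cells with 0 to 4 of Flt3, Kit, Cd34 and Ly6a at TPM 1 or more, with exact 95% intervals where at least 1 cell was found. Cells with all 4 make up 16.7% of the 14-month cells and 34.4% of the 4-month cells, and the intervals of the 2 ages overlap.

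Kit and Ly6a were found together in 19.7% of cells of 14 months, where the product of their shares was 20.1%, and in 34.4% of cells of 4 months, where it was 26.2%. Among cells with Ly6a, Kit was found in 13 of 25 of 14 months (52.0%, 31.3 to 72.2) and in 22 of 25 of 4 months (88.0%, 68.8 to 97.5). Among cells without Ly6a, it was found in 22 of 41 of 14 months (53.7%) and in 21 of 39 of 4 months (53.8%). The detection of Kit thus went with that of Ly6a in the cells of 4 months, and in those of 14 months it was about as frequent with Ly6a as without. In cells of 4 months the levels of both also went with the log2 number of genes detected (Pearson's r of 0.50 for Kit and 0.48 for Ly6a). These r were −0.02 for Kit and 0.17 for Ly6a in set 5, and −0.05 and 0.06 in set 4. The part of genes detected in the co-detection of Kit and Ly6a was not tested. Set 5 had Kit in 9 of 15 and set 4 in 4 of 10 of their cells with Ly6a. Counting any value above 0, Kit was found in 72.4% of cells of 14 months with Ly6a, and in 84.6% of those of 4 months. This pair was singled out after its values were seen.

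Genes detected moved with these shares. Cells were placed in 3 ranges of genes detected, chosen after the data were seen. With 4000 or more genes, Kit was found in 9 of 17 cells of 14 months (52.9%, 27.8 to 77.0) and in 29 of 31 cells of 4 months (93.5%, 78.6 to 99.2), and all 4 transcripts in 4 of these cells of 14 months and 17 of those of 4 months. Median genes detected in this range were 4213 in cells of 14 months and 5008 in cells of 4 months. Between 3000 and 3999 genes the ages were close, with Kit in 13 of 21 cells of 14 months and 13 of 22 cells of 4 months, and all 4 transcripts in 5 cells of each. With 1000 to 2999 genes the direction was the other way, with Kit in 13 of 28 cells of 14 months (46.4%) and in 1 of 11 cells of 4 months (9.09%). Over the ranges, Kit detection at TPM 1 climbed in cells of 4 months and stayed within counting error in cells of 14 months. Ly6a was found in 0 of 11, 7 of 22 and 18 of 31 cells of 4 months over the ranges, low to high. In cells of 14 months Ly6a was found in 9 of 28, 6 of 21 and 10 of 17. Counting any value above 0, Kit was found in 57.1%, 66.7% and 76.5% of cells of 14 months over the 3 ranges, low to high, and in 18.2%, 72.7% and 93.5% of cells of 4 months. The highest range of 14 months and the lowest of 4 months held fewer than 20 cells.

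**Figure D4:**
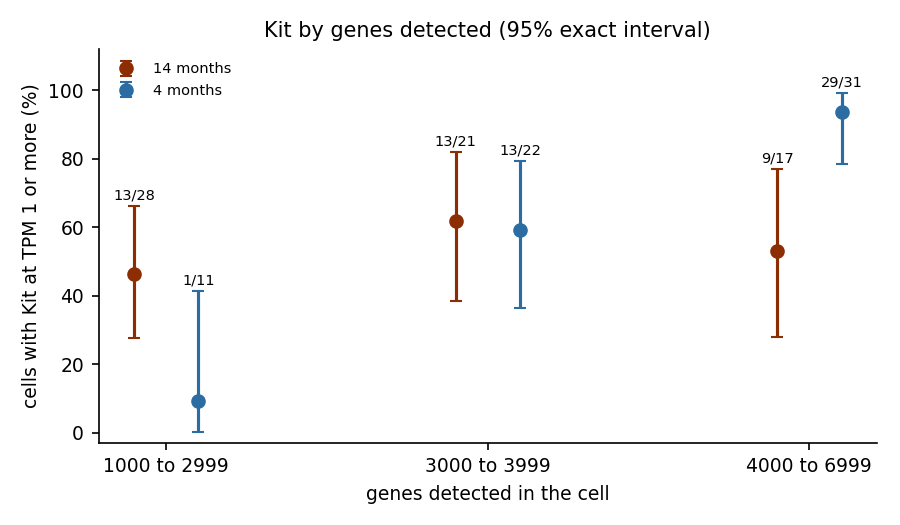
Points give the percentage of kept cells with Kit at TPM 1 or more in 3 ranges of genes detected per cell, with exact 95% intervals and the counts above them. The 4-month cells go up from 1 of 11 to 29 of 31 over the ranges, while the 14-month cells stay between 46.4% and 61.9%.

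Across cells, Flt3 and Cd34 were the pair of gate genes that varied together most. Pearson's r of log2(TPM+1) between them was 0.41 over 130 kept cells, after centring within set 5, set 4 and the cells of 4 months, and it was 0.40 within set 5, 0.49 within set 4 and 0.39 within the cells of 4 months. Spearman's rank correlation of this pair was 0.31 over all kept cells, centred alike. The other 5 pairs had a Pearson's r between 0.08 and 0.14 over all kept cells, but the groups differed. In cells of 4 months r was 0.35 for Kit with Cd34, 0.29 for Cd34 with Ly6a and 0.26 for Kit with Ly6a. Flt3 with Kit gave −0.28 in set 5, 0.29 in set 4 and 0.22 in cells of 4 months. Whether points of 1 group share a chip or reagents is not given, and all share the scaling to a common total, so these values are descriptions. Genes detected went with the levels of both members of the pair, with r of 0.41 for Flt3 and 0.44 for Cd34 on the log2 number of genes. For Cd34 this was 0.63 in set 5 and 0.45 in cells of 4 months but 0.02 in set 4. The mitochondrial share went the other way, with r of −0.35 for Flt3 and −0.45 for Cd34. The number of gate transcripts in a cell went with the log2 number of genes with an r of 0.52 over the 130 cells, at 0.54 in set 5, 0.16 in set 4 and 0.68 in cells of 4 months.

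The upstream stretches of Flt3 and Cd34 are shown because this pair had the highest r among the gate genes. Each is the 250 bases before the RefSeq start (GRCm38.p6), 5′ to 3′ on the gene's own strand, for Flt3 at chr5:147400490-147400739 on the minus strand and for Cd34 at chr1:194938571-194938820 on the plus strand. Capitals mark the only match to 4 short motifs searched on both strands, of which GGAAGT is read by factors of the ETS family.
Flt3: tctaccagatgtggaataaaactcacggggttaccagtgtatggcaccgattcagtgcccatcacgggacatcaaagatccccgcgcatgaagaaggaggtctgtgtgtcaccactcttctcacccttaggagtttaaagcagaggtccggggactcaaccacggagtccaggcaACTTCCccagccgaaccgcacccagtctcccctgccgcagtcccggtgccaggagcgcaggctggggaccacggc
Cd34: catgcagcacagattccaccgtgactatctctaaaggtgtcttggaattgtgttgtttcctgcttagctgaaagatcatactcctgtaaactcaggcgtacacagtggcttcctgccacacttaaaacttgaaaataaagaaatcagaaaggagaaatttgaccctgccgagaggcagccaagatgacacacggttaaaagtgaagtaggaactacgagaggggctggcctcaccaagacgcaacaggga
The capitals in Flt3 are ACTTCC, the reverse complement of GGAAGT, which 19.7% of the 32851 promoter stretches of the same length hold. Cd34 had no match, nor had the stretches of Kit and Slamf1, and no promoter entry was matched for Ly6a. Of the other motifs, GATAAG, read by Gata2 and its relatives, was found in 6.55% of all stretches. TGTGGT, read by Runx1 and its relatives, was found in 14.1%, and TATAAA, the core promoter element, in 12.4%. The stretch was rich in G and C for Flt3 (59.2%) and less so for Cd34 (46.4%), against a median of 52.4%.

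Of 5907 named genes found in at least 20% of the kept cells, those whose levels over the 130 centred cells were most like each gate gene were picked by Pearson's r. For Cd34 they were Set (0.61), a histone chaperone, Gnb1 (0.61), a G protein beta subunit, and Rpl9 (0.61), a ribosomal protein, all 3 found in over 96% of cells. The groups differed, and r of Cd34 with Set was 0.32 in set 5, 0.53 in set 4 and 0.79 in cells of 4 months. For Flt3 they were Ptp4a2 (0.51), a phosphatase, Tpm3 (0.50), a tropomyosin, and Ppp1r15a (0.48), which directs a phosphatase to eIF2α under stress. Here r of Flt3 with Ppp1r15a was 0.32 in set 5, 0.68 in set 4 and 0.49 in cells of 4 months. For Kit the highest were lower, at 0.37 for Fermt3, an integrin activator of blood cells, 0.36 for Ddx50, an RNA helicase, and 0.35 for Ifitm1, an interferon-induced membrane protein that gave −0.11 in set 4. The 99th percentile over all candidates was 0.48 for Cd34, 0.38 for Flt3, 0.29 for Kit and 0.33 for Ly6a, so each of these genes lies in the top 1% by choice. The median candidate was at 0.15 for Cd34, 0.13 for Flt3, 0.08 for Kit and 0.11 for Ly6a. Of the gate genes themselves, Cd34 ranked 30 of 5907 in likeness to Flt3, and Flt3 ranked 148 of 5907 in likeness to Cd34.

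For Ly6a the gene of highest likeness was Ly6c1 (0.60), a member of the same family encoded nearby on chromosome 15 (chr15:75044018-75048830, minus strand), and the next reported here was Exoc3 (0.43), an exocyst subunit. The r with Ly6c1 was 0.47 in set 5, 0.60 in set 4 and 0.71 in cells of 4 months. Ly6a was detected in 10 of 13 cells of 14 months with Ly6c1 and in 13 of 14 cells of 4 months with Ly6c1. In all, that is 23 of 27 cells (85.2%, 66.3 to 95.8), against 26.2% of the cells without Ly6c1 (exact 95% interval 18.0 to 35.8). In the 23 cells with both, Ly6a was a median of 34.9 times the level of Ly6c1 in cells of 14 months and 26.6 times in those of 4 months, and the ratio lay between 10 and 100 in 22 of them. The exception was a cell of 14 months with a ratio of 0.553. Where both were found, Ly6c1 thus mostly sat at a small fraction of Ly6a, and Ly6c1 was found in 21 of the 28 cells with Ly6a at TPM 100 or more.

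The sequences of these 2 transcripts bear on that ratio, because reads from a shared stretch fit both genes. Of the 50-base words of Ly6a transcripts, 19.0% also occur in transcripts of other genes, 195 of the 246 shared words in those of Ly6c1, against 0.049% for Flt3, 0 for Kit, 2.14% for Cd34 and 2.38% for Slamf1. Of 100-base words, 1.45% of those of Ly6a are shared. The longest run common to transcripts of both genes is 118 bases, of which 30 are coding in each. Within the coding sequences alone, the longest common run is 45 bases, at bases 37 to 81 of each, and spans an exon junction. In the genome this coding run lies within chr15:74996558-74997568 in Ly6a and chr15:75047459-75048475 in Ly6c1, both on the minus strand. Coding bases 22 to 96 are printed with that run in capitals.
Ly6a: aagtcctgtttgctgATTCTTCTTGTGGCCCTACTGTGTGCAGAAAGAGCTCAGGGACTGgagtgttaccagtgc
Ly6c1: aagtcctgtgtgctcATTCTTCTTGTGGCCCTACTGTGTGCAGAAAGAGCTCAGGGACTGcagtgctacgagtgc
The 2 coding sequences are 77.9% identical over their alignment. Ly6a is closer still to Ly6i (86.3%), Ly6f (84.6%), Ly6c2 (83.5%) and Ly6g (83.1%). Ly6f and Ly6g were at 0 in all kept cells, and Ly6i was detected in 3 kept cells, each of which had Ly6a. Whether reads of Ly6a were credited to Ly6c1 was not tested, and both levels are uncertain to that extent. Besides these, 4 kept cells had Ly6c1 without Ly6a at TPM 1, of which 1 cell of 14 months had 101.24 TPM of Ly6c1 with Ly6a at 0.

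**Figure D5:**
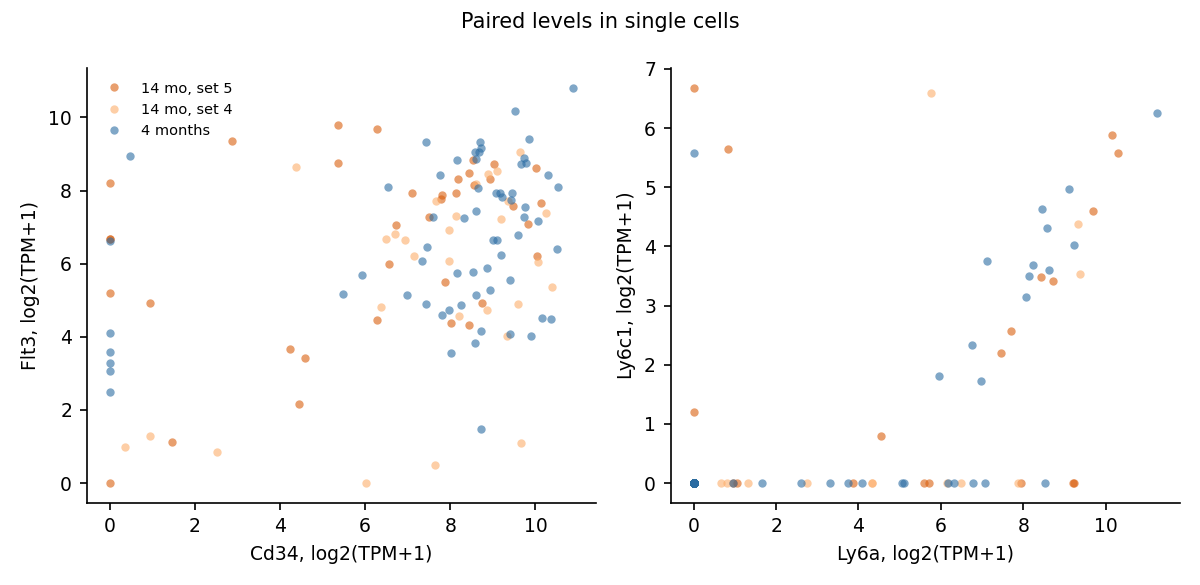
Each point is 1 kept cell; the left panel plots Flt3 against Cd34 and the right panel Ly6c1 against Ly6a, all as log2(TPM+1), coloured by set 5, set 4 and 4 months. On the right, 22 of the 23 cells with both transcripts lie in a band where Ly6a is 10 to 100 times Ly6c1, and 1 cell of set 4 lies apart with more Ly6c1 than Ly6a; most other cells lie along the axes.

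Relatives of the gate proteins were compared family by family. Of 15 genes of the Ly6 family 3 were measured, and all 3 lay above the median gene: Ly6a, Ly6e (0.53; found in 95.5% of cells of 14 months and 93.8% of cells of 4 months) and Ly6c1 (0.38); in set 4 alone Ly6a lay below it. Ly6c2 was found in 8 of 66 cells of 14 months and in 0 of 64 cells of 4 months. Of the neutrophil markers S100a8, S100a9, Camp and Ly6g, at least 1 was found in 21.2% of cells of 14 months (32.4% of set 5 and 6.90% of set 4) and in 6.25% of cells of 4 months, and Ly6g was at 0. Their summed level reached 364930 TPM in 1 cell of set 5, against a highest of 974 TPM in cells of 4 months, with medians of 0, and their part in the Ly6c2 result was not tested. Of the SLAM family, 4 of 9 genes were measured: Cd48 (0.93), which marks progenitors apart from stem cells, Cd84 (0.62), Ly9 (0.05) and Cd244a (−0.08). Cd48 was found in 46 of 66 cells of 14 months (69.7%) and in 40 of 64 cells of 4 months (62.5%), and Slamf6 and Slamf9 were at 0 throughout, like Slamf1. The sialomucins Podxl and Podxl2, relatives of Cd34, were at 0 too. Beside Flt3 and Kit, class III receptors gave −0.52 for Csf1r, the macrophage colony-stimulating factor receptor, and 0.06 for Pdgfrb. Csf1r was found in 4 of 66 cells of 14 months and in 17 of 64 cells of 4 months, and Pdgfra was at 0. Kitl, the ligand of c-Kit, was found in 0 of 66 cells of 14 months and 2 of 64 cells of 4 months.

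Of the genes that carry the signal of Flt3 and c-Kit, 25 of 28 were measured, 7 lay above and 18 below the median gene, and the median relative difference was −0.33. Over all measured genes 3.37% were higher by 1 or more and 5.08% lower by 1 or more. Nras, a RAS protein, was the 1 signalling gene past that size, at 1.09 (1.56 in set 5 and 0.53 in set 4), with detection in 60 of 66 cells of 14 months and 59 of 64 cells of 4 months. The next most abundant members were Plcg2 (−0.13), a phospholipase, Stat3 (−0.69), a transcription factor, and Grb2 (−0.87), the adaptor that links receptors to RAS. Of the genes that restrain these receptors, 10 of 12 were measured, 9 were below the median gene and 3 were lower by 1 or more, with a median of −0.48. Dusp6, a phosphatase of ERK that is itself induced by ERK signalling, averaged 3.22 in cells of 14 months and 5.98 in cells of 4 months as log2(TPM+1), a relative difference of −2.41. It was found in 44 of 66 cells of 14 months and in 56 of 64 cells of 4 months, and both sets were lower by a similar amount (−2.48 in set 5 and −2.27 in set 4). Spry2, another feedback inhibitor of ERK signalling, was at −1.33, and Ptpn6, the phosphatase SHP-1, at −1.40 with −2.12 in set 5 and −0.45 in set 4. Dok2, an adaptor that dampens RAS signalling, was at −0.35.

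All 15 transcription factors listed here for the gate genes were measured, 14 lay below the median gene and the median was −0.36. Whether they act on the gate genes in these cells was not tested. Lyl1, a basic helix-loop-helix factor of progenitors, was at −2.29, with 22 of 66 cells of 14 months and 45 of 64 cells of 4 months. Ikzf1, the Ikaros factor of lymphoid priming, was at −1.01, close to the limit of 1, and no other member reached 1. The most abundant members were Lmo2 (−0.80), Meis1 (−0.04), Myb (−0.15) and Fli1 (−0.37), regulators of stem cells and progenitors. Meis1 and Myb, as Flt3 and Kit did, differed in sign between set 5 (0.58 and 0.60) and set 4 (−0.78 and −1.06).

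Among 21 other surface genes of stem cells and progenitors 13 were measured, 8 above and 5 below the median gene, with a median of 0.40. The 3 genes higher by 1 or more included Cd53, a tetraspanin (1.30), and Il7r, which encodes a receptor chain for interleukin-7 (1.29; 13 of 66 cells of 14 months and 5 of 64 cells of 4 months). The 3 genes lower by 1 or more included the hyaluronan receptor Cd44 (−1.09) and Cd27 (−1.06), a co-stimulatory receptor. Cd53, Il7r, Cd44 and Cd27 kept their signs in set 5 and in set 4 against cells of 4 months. Cd93 was at 0.30, with 1.09 in set 5 and −0.66 in set 4, and Ptprc was at 0.40.

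The antigens of the lineage depletion were a check on the negative side of the gate. Cd3e and Ly6g were at 0 in all kept cells. Itgam, which encodes CD11b, was found in 17 of 66 cells of 14 months (25.8%) and in 44 of 64 cells of 4 months (68.8%). Its means were 3.55 TPM in cells of 14 months and 6.30 TPM in cells of 4 months, with a relative difference of −0.44. Itgam was above 0 in 115 of the 130 kept cells, so many cells held it below TPM 1 and these shares depend on the threshold. Ly6c1 and Ly6c2, which encode the Ly-6C part of the Gr-1 antigen, are given above. The B220 antigen is a form of the Ptprc product, which gene-level values do not separate from other forms.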

How the data were processed

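The authors deposited 1 table of TPM values, transcript abundances that add up alike for every column, for 38924 genes in 168 columns of single cells. The tools named in the submitters' processing notes are RSEM 1.2.12 and Bowtie2 2.2.0, with build mm10. RSEM divides reads that match several genes among them, which can move values between similar genes. Symbols were matched to 37607 of the gene identifiers from GENCODE M21.

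Values were computed in Python 3.11.15 with numpy 2.4.6, pandas 2.3.3 and scipy 1.17.1. Cells with fewer than 1000 genes at TPM 1 were left out. Levels are log2(TPM+1) with a pseudocount of 1, and a fold on that scale understates the change of low genes. Calls of genes between groups mean a relative difference of 1 or more in size, with no test, because each age is 1 sample. The calculation was checked on simulated data. Genes named were every gate gene, in each list the 4 with the highest mean level and any past 1 in size, the 3 most like each gate gene, and all lineage antigens, except a few that are not reported here; Flt3l, Ly76 and Sh2d1b1 had no symbol match and were not analysed here. Genes named outside that rule (Slamf6, Slamf9, Podxl, Podxl2, Pdgfra, Ly6i, Ly6f, Procr) were chosen after their values were seen. The gate genes, the lists and the analyses were chosen with earlier results of these data known. Alternatives covered the pseudocount, detection threshold, cell and gene filters, matching on genes detected, rescaling without mitochondrial transcripts, quantile normalization and each 14-month set alone.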

Additional observations from a re-analysis of the deposited data

Results flagged for a closer look

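The 38 columns left out for holding fewer than 1000 genes still gave gate transcripts. The shares of Flt3 and Cd34 were above 7.89% (3 of 38), the limit for a count of 0, and those of Kit and Ly6a were below it. That limit is not a measured level of noise. Flt3 was at TPM 1 or more in 13 of the 38 columns (34.2%, exact 95% interval 19.6 to 51.4), in 7 of 18 columns of 14 months and in 6 of 20 columns of 4 months. Cd34 was found in 11 (28.9%, 15.4 to 45.9), in 6 of 18 columns of 14 months and 5 of 20 columns of 4 months. Kit was found in 2 and Ly6a in 1 of the 38 columns, all of set 4, and Slamf1 in 0. What these columns hold was not tested.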

How the results depend on the processing

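The detection threshold set the share of 14-month cells with all 4 transcripts, which was 16.7% at TPM 1, 30.3% at any value above 0 and 7.58% at TPM 10 or more; the other alternatives gave 13.8% to 21.2%. In cells of 4 months it stayed between 25.0% and 36.7%. Levels in cells of 14 months reversed in 2 cases: Kit minus Ly6a was −0.14 with a pseudocount of 10 (0.22 with 1), and Cd34 minus Flt3 was −0.42 in set 5 alone (0.67 in both sets). The cause was not tested. Over 16 alternatives the relative difference changed sign in 2 for Flt3, to 0.01 with genes in at least 30% of cells and 0.33 with set 5; in 3 for Kit, to 0.01 with matched cells, 0.08 with quantile normalization and 0.26 with set 5; in 1 for Cd34, to 0.12 with set 4; and in 1 for Ly6a, to −0.16 with set 4. Cd34 passed 1 in size with set 5 alone (−1.34). Of the genes of the lists past 1 in size, none changed sign, but Ikzf1, Cd27 and Cd44 stayed past 1 in only 8 of 16 alternatives. The alternatives without near-identical cells and without cells dominated by 1 gene were chosen after seeing the data. No paired analysis was possible because no label pairs cells across ages. Depth is unknown, and a transcript at 0 may have been missed.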
